A study of Mus musculus with 24 samples.

Results

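Oxidative phosphorylation is carried out by 5 protein complexes of the inner mitochondrial membrane, and this account describes the transcripts of their nuclear-encoded subunits in the prefrontal cortex of mice with a heterozygous chromosome 16 deletion. The members were chosen by gene symbol from a list of 47 subunit genes. Of these, 45 had a probe set annotated to that symbol alone, out of 18820 genes measured in the same way. They comprised 18 genes of complex I, 4 of complex II, 5 of complex III, 10 of complex IV and 8 of complex V. Uqcrc2 of complex III and Cox7c of complex IV share their probe sets with other gene symbols and were not used. Ndufa4 carries a complex I name but is now placed in complex IV and was counted there.

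The 24 arrays were of prefrontal cortex samples, 12 labelled Df16(A)+/- and 12 labelled WT, all male, aged 8 weeks and on the C57BL6/J background, the wild types being littermates of the mutants. Each sample is called a mouse here, although the labels give replicate numbers and do not state that each is a separate animal. Df(16)A is an engineered deletion that takes away a single copy of the mouse segment matching human 22q11.2. It spans many genes, so a difference cannot be assigned to any one of them. Total RNA of the whole dissected tissue was hybridised to Affymetrix whole-transcript arrays. In such tissue, fewer cells of a type and less RNA per cell cannot be told apart. Array medians lay between 6.71 and 6.82 on the deposited log2 scale, and pairwise correlations between 0.994 and 0.997. The 5 lowest medians were those of mutant replicates 9 (6.71), 10 (6.72) and 5 (6.74) and wild-type replicates 12 (6.73) and 3 (6.74). Some results are also given without the 3 mutants, which earlier work on these data set apart. Some are given without all 5, a choice made after the medians were seen.

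Complexes I, III and IV pump protons out of the mitochondrial matrix while electrons pass from NADH, or from succinate through complex II, to oxygen. Complex V, the ATP synthase, lets the protons flow back and makes ATP. Neurons depend heavily on this route, and cortical synapses are rich in mitochondria. Each complex except II combines subunits encoded in the nucleus with others encoded by mitochondrial DNA. No probe set with a single symbol was found for the 13 mitochondrially encoded subunits, so everything below concerns nuclear genes.

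The deleted segment holds mitochondrial genes but no subunit of these complexes, and those genes served to check the labels. Slc25a1, the citrate carrier of the inner membrane, ranged from 9.90 to 10.08 in wild types and from 8.97 to 9.24 in mutants. Its level fell by 0.88 ± 0.03 (SE) on the log2 scale (limma, adjusted p = 3.42e-17). Mrpl40, Txnrd2 and Prodh, which serve the mitochondrial ribosome, thioredoxin reduction and proline breakdown, fell by 0.76, 0.64 and 0.71. Every mutant lay below every wild type in these 4 genes.

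None of the 45 subunit genes passed the test between the genotypes. Over all genes, 0.228% were called lower and 0.531% higher at the same threshold (limma, Benjamini-Hochberg adjusted p under 0.05). The smallest adjusted p among the members was 0.255, for Cox7a2. At an unadjusted p under 0.05, 4 members were lower (8.89%) and none higher, against 5.82% of all genes lower and 6.11% higher. The permutation test put 6 members under that level, all with values below 0. It was not run over all genes, so no background share stands beside this count, and the limma shares are not comparable with it. The genotypes overlapped in all 45 genes, a count that was not made over all genes and so has no background share either.

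The differences were small and mostly below 0. Mutant minus wild type ran from -0.11 for Uqcrfs1 to 0.027 for Ndufb3, with a median of -0.029 on the log2 scale, a change of -2.0%. The median over all genes was -0.0014. In 38 genes (84.4%) the value lay below 0, and in 38 it was smaller than 0.05 in either direction. The 95% interval stayed within 0.1 of 0 in 32 genes, within 0.2 in 42 and within 0.25 in all 45. The lowest bound, for Uqcrb, corresponds to a level 14.3% lower in mutants, and the highest, for Ndufb3, to one 9.19% higher.

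**Figure D1:**
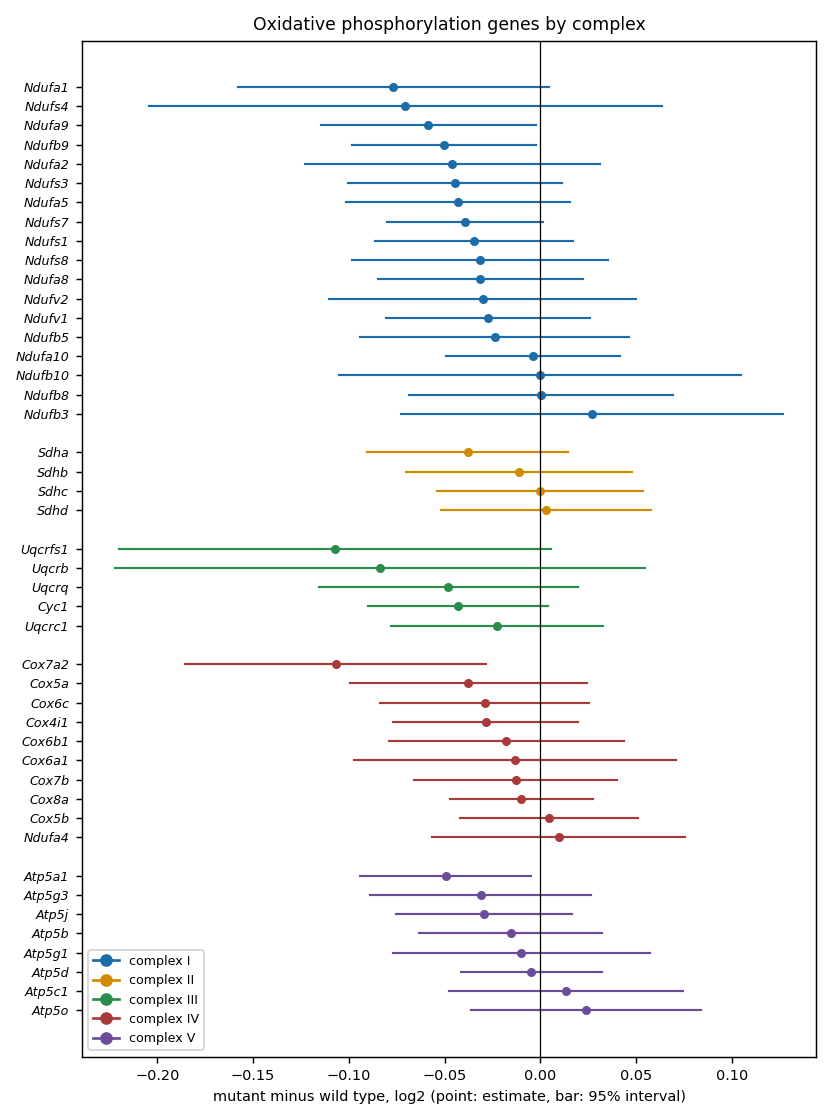
Log2 difference of mutant minus wild type (x axis) for the 45 genes, grouped by complex. Points are limma estimates over 12 mutants and 12 wild types and bars are 95% intervals; 38 points lie below 0 and no gene passed the adjusted threshold.

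The count of 38 has to be read beside the behaviour of strongly hybridising probe sets in general. Over all genes 51.0% lay below 0. Among the brightest 25% of genes, which hold 40 of the 45 members, the share was 64.9%. In that bright group 8.78% of genes were lower at an unadjusted p under 0.05, against the 8.89% of members given above. When genes were divided into 10 bins of equal size by mean level, the share below 0 was 30.4% in the dimmest bin and between 63.5% and 66.7% in the 5 brightest bins, where all members lie.

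**Figure D2:**
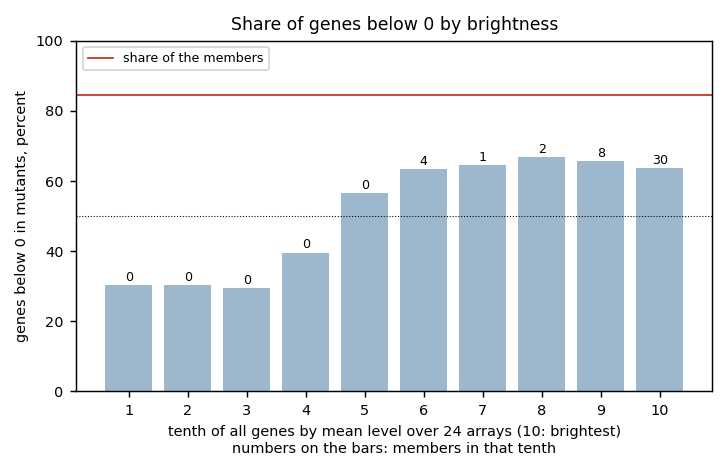
Percent of genes with a lower mean in mutants (y axis) in 10 bins of 1882 genes by mean level over 24 arrays, from dimmest to brightest (x axis). Numbers on the bars count the members in a bin; the red line is the members' own share of 84.4% and the dotted line marks 50%.

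The bright genes as a whole also moved with genotype in single mice. The mean over the 4665 bright genes that are not members lay between 10.40 and 10.44 in mutants and between 10.41 and 10.44 in wild types. In 7 of 12 mutants it was below the lowest wild type. The mean over the 45 members ran from 10.76 to 10.86 in mutants, with a median of 10.82, and from 10.79 to 10.89 in wild types, with a median of 10.83. Its mean difference was -0.028, and that of the bright non-members -0.013. An alternative added once the values were known centred every array on those bright non-members. It left 30 members below 0, against 41.3% of all genes. The members' median was then -0.016 and the median over all genes 0.012. With each array centred on its own median, 29 members lay below 0 and 40.8% of all genes did. With quantile normalization the count was 33, against 51.2% of all genes. Without the 5 arrays of lowest median, 36 members lay below 0 with a median of -0.018, against 49.1% of all genes. There 1 member was lower at an unadjusted p under 0.05, against 3.28% of all genes. The sign count thus differed between scalings, whereas the number of members past the adjusted threshold was 0 under each of these.

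**Figure D3:**
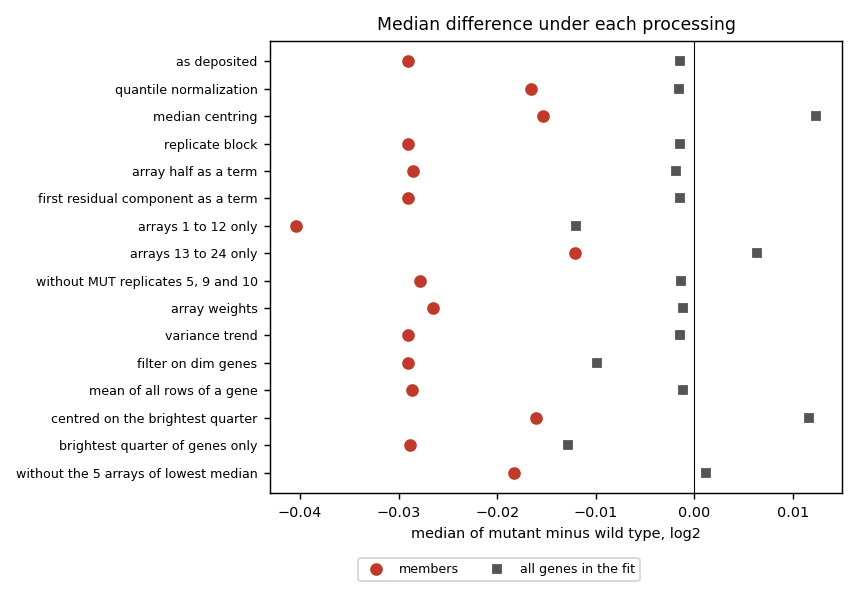
Median log2 difference of mutant minus wild type (x axis) over the members (circles) and over all genes in the same fit (squares), for the values as deposited and for 15 other settings (y axis). The members' median ran from -0.040 with arrays 1 to 12 to -0.012 with arrays 13 to 24.

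Complex I takes electrons from NADH and is the largest of the 5. Of its 18 members 16 lay below 0, with a median of -0.033, and 2 were lower at an unadjusted p under 0.05. The 6 core subunits among the members, Ndufs1, Ndufs3, Ndufs7, Ndufs8, Ndufv1 and Ndufv2, were all below 0, in the narrow range of -0.045 to -0.027. The 4 accessory subunits of the peripheral arm, which projects into the matrix, lay between -0.070 (Ndufs4) and -0.043 (Ndufa5). The 8 accessory subunits of the membrane arm spread more widely, from -0.077 (Ndufa1) to 0.027 (Ndufb3), with a median of -0.014.

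Ndufb9, an accessory subunit of the membrane arm, had the smallest p of complex I. Its level was 11.39 at the lowest, 11.45 at the median and 11.52 at the highest in wild types, and 11.30, 11.41 and 11.47 in mutants. The groups overlapped, and 3 mutants lay below the lowest wild type. The difference was -0.050 ± 0.023 (SE; unadjusted p = 0.0410, adjusted p = 0.396). Ndufa9, which sits where the arms meet, had 10.28, 10.41 and 10.46 in wild types and 10.22, 10.35 and 10.46 in mutants. Here 10 of 12 mutants were below the wild-type median, and the difference was -0.059 ± 0.027 (unadjusted p = 0.0417, adjusted p = 0.398). Ndufs7, a core subunit that holds the last iron-sulfur cluster before ubiquinone, had a narrow spread, with 12.24, 12.31 and 12.34 in wild types and 12.20, 12.28 and 12.32 in mutants. Its difference was -0.039 ± 0.020 (adjusted p = 0.443), with 4 mutants below all wild types. In arrays 1 to 12 it was -0.068 and in arrays 13 to 24 -0.0068. Without the 5 arrays of lowest median Ndufb9, Ndufa9 and Ndufs7 had -0.044, -0.039 and -0.047 (limma, unadjusted p = 0.136, 0.236 and 0.0566).

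Ndufa1, an X-linked subunit of the membrane arm, differed by -0.077 ± 0.040 (adjusted p = 0.452). Wild types had 7.80, 7.88 and 8.08 and mutants 7.56, 7.84 and 7.98. Mutant replicate 2 gave the low extreme, and 5 mutants lay below the lowest wild type. The other members of the complex ran from -0.070 to 0.027, with adjusted p-values of 0.537 and above. Ndufs4, a small subunit of the peripheral arm, varied strongly in both genotypes, from 11.07 to 11.63 in wild types and from 11.11 to 11.58 in mutants. Its difference of -0.070 came with an interval from -0.20 to 0.064. Ndufb10 and Ndufb8 were closest to 0, at under 0.001 in size.

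Complex II, succinate dehydrogenase, is encoded in the nucleus alone and also serves the citric acid cycle. Of its 4 members 3 lay below 0, with a median of -0.0056. Sdha, the flavoprotein, had 11.65, 11.78 and 11.89 in wild types and 11.66, 11.75 and 11.81 in mutants, a difference of -0.038 ± 0.026 (adjusted p = 0.587). Sdhb, the iron-sulfur subunit, had 10.40, 10.50 and 10.64 in wild types and 10.40, 10.52 and 10.56 in mutants, with a difference of -0.011 ± 0.029 (adjusted p = 0.913). In both genes the lowest mutant lay above the lowest wild type, and 4 wild types exceeded every mutant.

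The membrane anchors Sdhc and Sdhd had differences of -0.0001 ± 0.026 and 0.0028 ± 0.027 (adjusted p = 0.999 and 0.982). Sdhc had 10.22, 10.29 and 10.44 in wild types and 10.22, 10.30 and 10.39 in mutants. Sdhd had 9.42, 9.59 and 9.67 in wild types and 9.49, 9.58 and 9.64 in mutants. Their 95% intervals lay within 0.1 of 0. The count below 0 in this complex was 1 of 4 under quantile normalization, under both centrings, in arrays 13 to 24 and without the 5 arrays of lowest median.

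Complex III passes electrons from ubiquinol to cytochrome c. All 5 of its members lay below 0, with the lowest median of the complexes, -0.048. Uqcrfs1, the Rieske iron-sulfur protein, had 8.00, 8.24 and 8.58 in wild types and 7.93, 8.18 and 8.36 in mutants. Of the mutants 11 were below the wild-type median, yet only 2 were below the lowest wild type, and the difference was -0.11 ± 0.055 (adjusted p = 0.449). Wild-type replicates 3 and 12 were the highest mice and mutant replicate 9 the lowest, all among the 5 arrays of lowest median. Without mutant replicates 5, 9 and 10 the difference of Uqcrfs1 was -0.067, and without all 5 arrays -0.012 (unadjusted p = 0.794). Cyc1, cytochrome c1, had 11.33, 11.38 and 11.42 in wild types and 11.25, 11.32 and 11.45 in mutants. In this gene 7 mutants lay below every wild type, while the highest of all mice was also a mutant. The difference was -0.043 ± 0.023 (permutation test, two-sided, p = 0.0374; adjusted p = 0.470 by limma).

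Uqcrq, a small subunit, had 10.04, 10.27 and 10.36 in wild types and 10.07, 10.23 and 10.32 in mutants, a difference of -0.048 ± 0.033 (adjusted p = 0.592) that was -0.017 without those 5 arrays. Uqcrb, a subunit near the ubiquinone site, was the most variable member. It ranged from 11.21 to 11.78 in wild types and from 11.18 to 11.75 in mutants, with medians of 11.36 and 11.27, and a difference of -0.084 ± 0.067 (adjusted p = 0.663). In arrays 1 to 12 the difference was -0.014 and in arrays 13 to 24 -0.18. Its 3 probe sets gave -0.084, -0.083 and -0.093. Uqcrc1, a core protein, had -0.023 ± 0.027.

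Complex IV, cytochrome c oxidase, reduces oxygen. Its catalytic core is mitochondrially encoded, and the members here are nuclear subunits around it. Of 10, 8 lay below 0, with a median of -0.015. With each array centred on its median, 5 did. Cox7a2, the widely expressed form of subunit VIIa, had the smallest p of all members, with 10.39, 10.57 and 10.66 in wild types and 10.29, 10.46 and 10.65 in mutants. Here 11 of 12 mutants lay below the wild-type median and 4 below every wild type. The difference was -0.11 ± 0.038 (SE), a fold of 0.929, with a 95% interval of -0.19 to -0.028 (unadjusted p = 0.00971, adjusted p = 0.255 by limma). Without mutant replicates 5, 9 and 10 it was -0.14 (adjusted p = 0.119). In arrays 1 to 12, numbered as in the labels, it was -0.15, and in arrays 13 to 24 it was -0.059. Over all settings its adjusted p lay between 0.119 and 0.800.

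The next 3 members of the complex were closer to 0. Cox5a had 9.52, 9.69 and 9.73 in wild types and 9.44, 9.62 and 9.70 in mutants, a difference of -0.038 ± 0.030 (adjusted p = 0.661). Cox4i1, which takes part in the regulation of the enzyme by ATP, had 11.10, 11.23 and 11.32 in wild types and 11.15, 11.19 and 11.31 in mutants, a difference of -0.029 ± 0.023 (adjusted p = 0.669). Cox6c had 13.05, 13.10 and 13.21 in wild types and 12.997, 13.07 and 13.22 in mutants, a difference of -0.029 ± 0.027 (adjusted p = 0.705). In each of these 3 genes the mutant median was lower and the ranges overlapped, with 1, 0 and 4 mutants below every wild type. In arrays 1 to 12 and 13 to 24, Cox5a had -0.075 and -0.011, and Cox6c 0.0065 and -0.062. Cox6b1, Cox6a1, Cox7b and Cox8a lay between -0.018 and -0.0099. Cox5b and Ndufa4 were the members above 0, at 0.0047 and 0.0096.

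Complex V couples proton flow to ATP synthesis through a catalytic head, F1, a rotor with a ring of c subunits, and a peripheral stalk. Of its 8 members 6 lay below 0, with a median of -0.013. Atp5a1, the alpha subunit of the head, had 12.19, 12.25 and 12.31 in wild types and 12.10, 12.20 and 12.30 in mutants. Of 12 mutants, 11 lay below the wild-type median and 5 below every wild type. The difference was -0.049 ± 0.022 (unadjusted p = 0.0319, adjusted p = 0.367). Without the 5 arrays of lowest median it was -0.038 (limma, unadjusted p = 0.141). The catalytic beta subunit Atp5b had -0.015 ± 0.023 and the delta subunit Atp5d -0.0046 ± 0.018. The gamma subunit Atp5c1 lay above 0, at 0.013 ± 0.030, with 1 mutant below the wild-type median.

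Atp5j and Atp5o, of the peripheral stalk, lie on chromosome 16 like the deletion but outside it. Atp5j had 11.13, 11.22 and 11.29 in wild types and 11.12, 11.20 and 11.25 in mutants, with 11 mutants below the wild-type median and a difference of -0.029 ± 0.022 (adjusted p = 0.640). Atp5o had 10.71, 10.81 and 10.96 in wild types and 10.76, 10.85 and 10.95 in mutants, with a difference of 0.024 ± 0.029 (adjusted p = 0.792) that was -0.011 in arrays 1 to 12 and 0.059 in arrays 13 to 24. Of the genes for the c ring, Atp5g3 had 11.04, 11.14 and 11.25 in wild types and 11.03, 11.10 and 11.25 in mutants, a difference of -0.031 ± 0.028 (adjusted p = 0.698), with -0.053 in arrays 1 to 12 and -0.0038 in arrays 13 to 24. Atp5g1 had -0.0098 ± 0.033. Without the 5 arrays of lowest median Atp5j, Atp5o and Atp5g3 had -0.0157, 0.0455 and -0.0129.

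Within a genotype, the members were about as variable as other bright genes. The median within-genotype SD was 0.064 for the members and 0.064 for the brightest 25% of genes. The SD was larger in wild types in 24 of the 45 members. Of the members, 9 had further probe sets, 10 in all, and 8 of these lay below 0. The signs differed between probe sets in Ndufb5 (-0.024 and 0.061) and Cox5b (0.0047 and -0.0044).

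**Figure D4:**
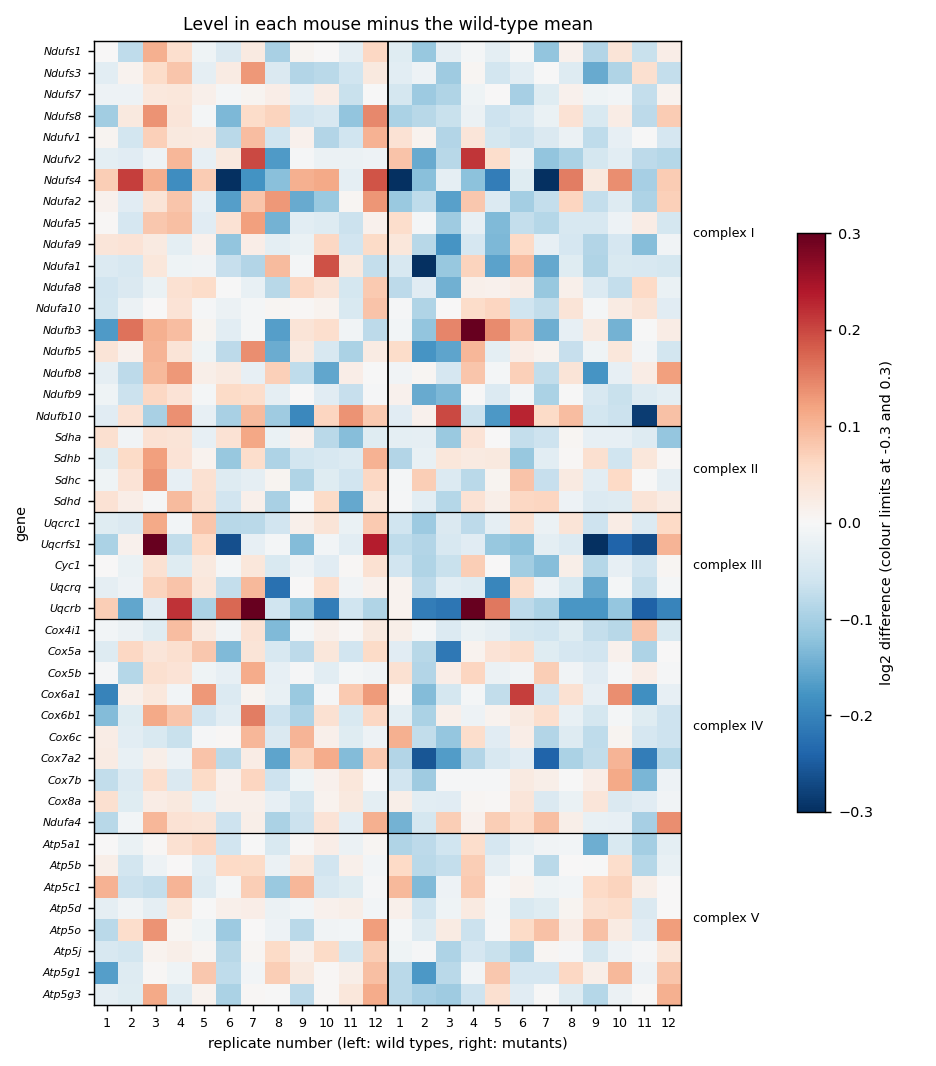
Level of each member (rows, by complex) in each mouse (columns, wild types left and mutants right, by replicate number) minus the wild-type mean of that gene, on the log2 scale. Wild-type replicates 3, 7 and 12 show warm columns and mutant replicates 2 and 3 cool ones; Uqcrb, Ndufs4 and Uqcrfs1 vary most between mice.

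Taken per mouse, as the mean of the members of a complex, the genotypes overlapped in every complex. Complex I ran from 10.11 to 10.24 in mutants, with a median of 10.16, and from 10.15 to 10.25 in wild types, with a median of 10.20. In 3 mutants it was below the lowest wild type. Complex II ran from 10.49 to 10.56 in mutants and from 10.45 to 10.62 in wild types, and the lowest mouse was wild-type replicate 11. All 12 mutants lay below the wild-type median of 10.557, but the highest mutant, at 10.556, was just under it. By the same narrow margin 6 wild types lay above every mutant, and no mutant lay below the lowest wild type. The mutant SD was 0.020 and the wild-type SD 0.049.

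Complex III ran from 10.41 to 10.62 in mutants, with a median of 10.52, and from 10.49 to 10.67 in wild types, with a median of 10.55. In 4 mutants it lay below every wild type, and 10 were below the wild-type median. Complex IV ran from 11.371 to 11.496 in mutants and from 11.396 to 11.521 in wild types, with 2 mutants below every wild type. Complex V ran from 11.74 to 11.86 in mutants and from 11.78 to 11.87 in wild types, again with 2 mutants below. Complexes III and I had the largest mean differences, -0.061 and -0.032, and complexes II and V the smallest, -0.012 and -0.013. Without the 5 arrays of lowest median, which left 9 mutants and 10 wild types, the mean differences of complexes I to V were -0.020, -0.0025, -0.035, -0.022 and -0.012. The differences between complexes were not tested.

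**Figure D5:**
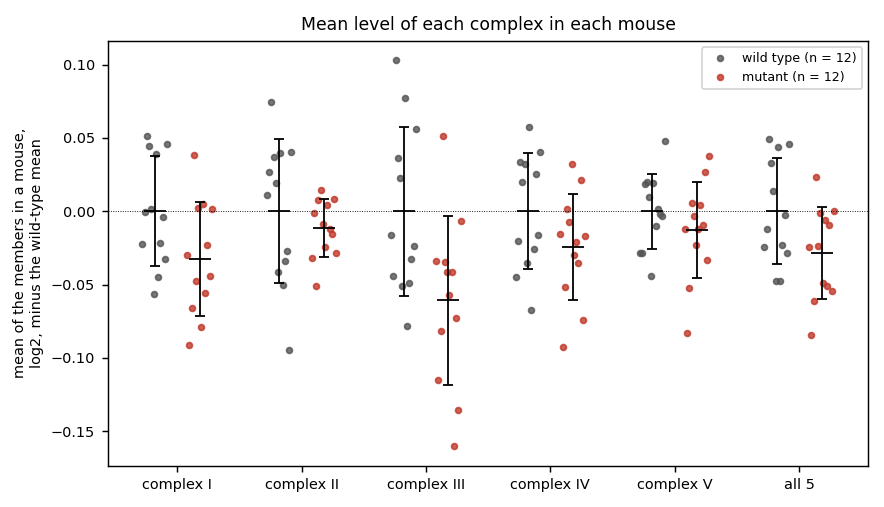
Mean level of the members of each complex in each mouse (points), minus the wild-type mean, on the log2 scale (y axis), for 12 wild types (grey) and 12 mutants (red). Horizontal marks and bars are the mean and SD over mice; the mutant mean is below the wild-type mean in each complex and the points overlap.

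The same mice tended to be high or low across complexes. Mutant replicate 2 had the lowest mean of all 24 mice in complexes I, IV and V and lay below the wild-type median in 41 of 45 genes. Mutant replicate 3 was among the 6 lowest mice in all 5 complexes. Mutant replicates 3, 7 and 9 were each below that median in 36 genes. At the other end, wild-type replicates 3, 7 and 12 were among the 6 highest mice in all 5 complexes, and wild-type replicate 3 was below the median in 10 genes. Wild-type replicates 3 and 12 are among the arrays of lowest median, and the part of this in their values was not tested. Exceptions ran in both directions. Mutant replicate 4 was below it in 21 genes, and wild-type replicate 8 in 35. Of the mutants among the 5 arrays of lowest median, replicates 5 and 10 were below the wild-type median in 29 and 27 genes, near the mutant median of 28. Without replicates 5, 9 and 10, 37 members lay below 0 and 2 were lower at an unadjusted p under 0.05. Over all genes 51.0% lay below 0 there and 4.36% were lower at that level.

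Promoters were searched for motifs of transcription factors long linked to respiratory genes, and a few stretches are shown because they hold such matches just before the start. The RefSeq table of 300-base windows, from 250 bases before to 50 after a transcription start on build GRCm38.p6, held 35 of the 45 members. Ndufs1, Ndufa2, Ndufb9, Sdhc, Cyc1, Uqcrq, Uqcrb, Cox4i1, Cox6c and Atp5a1 had no window and are in none of the shares and medians below. The NRF1 motif, GCGC followed by any base and then TGCGC, searched like the others on both strands, was found in 9 of 35 members (25.7%), against 7.96% of 14739 measured genes and 5.19% of all 27025 genes in that table. The YY1 motif AANATGGCG was found in 5 members (14.3%), against 3.94% of measured genes, and the ETS motif CCGGAAG in 8 (22.9%), against 13.7%. No matches of different motifs overlapped in the members. The members with and without an NRF1 match had median differences of -0.023 and -0.021. Those with and without a YY1 match had -0.039 and -0.015, and for ETS the medians were -0.015 and -0.024. In the stretches below, written 5′ to 3′ on the gene's strand, capitals mark the matches on either strand. The Sdha stretch (chr13:74350241-74350350, minus strand) holds 3 NRF1 matches and the Cox6a1 stretch (chr5:115348959-115349128, minus strand) 2 NRF1 and 1 ETS match. The Ndufa8 stretch (chr2:36049339-36049398, minus strand) holds 1 NRF1 match, and the Atp5j stretch (chr16:84835017-84835076, minus strand) a YY1 and an ETS match. Cox7a2 (chr9:79759854-79759913, minus strand) is shown as the member with the smallest p, and these letters hold none of the motifs.
Ndufa8: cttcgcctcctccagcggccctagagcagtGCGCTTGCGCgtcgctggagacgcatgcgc
Sdha: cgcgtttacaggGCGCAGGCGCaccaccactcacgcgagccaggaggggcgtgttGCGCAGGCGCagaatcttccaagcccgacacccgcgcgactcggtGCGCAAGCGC
Cox6a1: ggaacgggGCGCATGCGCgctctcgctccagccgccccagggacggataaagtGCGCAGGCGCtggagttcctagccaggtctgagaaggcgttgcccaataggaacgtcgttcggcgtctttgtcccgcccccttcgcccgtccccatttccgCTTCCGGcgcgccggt
Atp5j: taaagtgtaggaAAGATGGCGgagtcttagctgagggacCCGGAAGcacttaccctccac
Cox7a2: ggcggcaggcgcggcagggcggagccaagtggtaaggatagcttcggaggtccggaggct

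The genes around the members were read from lists of other subunits, isoforms, assembly factors, carriers and regulators. Of 44 measured assembly factors, proteins that build the complexes without staying in them, 1 fell and none rose. Over all genes 0.228% were called lower and 0.531% higher. The gene that fell was Tmem126b, which helps to assemble the membrane arm of complex I. Its level was 8.25 at the lowest, 8.35 at the median and 8.43 at the highest in wild types, and 8.01, 8.23 and 8.31 in mutants. All 12 mutants lay below the wild-type median and 7 lay below every wild type. The log2 difference was -0.14 ± 0.034 (SE), a fold of 0.906 (limma, adjusted p = 0.0415; permutation test, two-sided, p = 0.00027). The call was kept under 9 of 14 other settings. Without mutant replicates 5, 9 and 10 the difference was -0.12 (adjusted p = 0.119), without the 5 arrays of lowest median -0.11 (adjusted p = 0.283), and with arrays centred on bright genes -0.13 (adjusted p = 0.0556). Within arrays 1 to 12 and 13 to 24, with fewer mice, it was -0.17 and -0.13 (adjusted p = 0.269 and 0.467).

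Of the 44 assembly factors 31 lay below 0, against the 51.0% of all genes and 64.9% of bright genes given above, with a median of -0.034. By target, these were 8 of 13 for complex I, 3 of 4 for complex II, 4 of 6 for complex III, 13 of 17 for complex IV and 3 of 4 for complex V. Fmc1, an assembly factor of the ATP synthase, ranged from 8.56 to 8.91 in wild types and from 8.48 to 8.78 in mutants, a difference of -0.14 ± 0.041 (adjusted p = 0.118). Coa7, an assembly factor of complex IV, ranged from 7.96 to 8.32 and from 7.73 to 8.23, a difference of -0.14 ± 0.048 (adjusted p = 0.220). Without the 5 arrays of lowest median the differences of Fmc1 and Coa7 were -0.084 and -0.083. At an unadjusted p under 0.05, 5 of the 44 assembly factors were lower and none higher, against 5.82% of all genes lower and 6.11% higher.

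Of 28 other subunits measured, none passed and 22 lay below 0, to be read beside the same shares, with a median of -0.019. Ndufs5, an accessory subunit of complex I, had -0.12 ± 0.044 (adjusted p = 0.277), with 11 of 12 mutants below the wild-type median; in arrays 1 to 12 it was -0.19 and in arrays 13 to 24 -0.052. Ndufb11 and Ndufb7, of the same complex, had -0.039 and -0.056. Of 10 isoforms and related proteins, most known chiefly from other tissues but including the broadly expressed Cox7a2l, none passed and 4 lay below 0. Among them Cox6a2, the muscle form of subunit VIa, had 0.11 ± 0.046 (adjusted p = 0.327), and 1 mutant lay below the wild-type median; in arrays 1 to 12 it was 0.047 and in arrays 13 to 24 0.20. Without mutant replicates 5, 9 and 10 Cox6a2 had 0.0804, and without the 5 arrays of lowest median 0.1025. Cox7b2 and Cox6b2 had -0.073 and 0.074.

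In the values as deposited all 12 carriers and partners lay below 0, against 51.0% of all genes and 64.9% of bright genes, with a median of -0.049, and none passed. They include cytochrome c, the voltage-dependent channels of the outer membrane and the electron-transfer flavoproteins. Slc25a5, an exchanger of ADP for ATP, ranged from 12.26 to 12.37 in wild types and from 12.14 to 12.34 in mutants, a difference of -0.061 ± 0.025 (adjusted p = 0.328). In 6 of 12 mutants it lay below every wild type. Etfa had -0.11 ± 0.056 and Ckmt1, the mitochondrial creatine kinase, -0.053 ± 0.027 (adjusted p = 0.431 and 0.454). Etfa had -0.073 without mutant replicates 5, 9 and 10, and Ckmt1 -0.098 in arrays 1 to 12 and 0.002 in arrays 13 to 24. Of 15 transcriptional regulators 11 lay below 0, to be read beside the same 51.0% and 64.9%, with a median of -0.014, and none passed. Tfam, which packages mitochondrial DNA, had -0.099 ± 0.051, Esrra, a nuclear receptor, -0.065 ± 0.040, and Gabpb1, a partner of an ETS factor, -0.060 ± 0.038 (adjusted p = 0.452, 0.547 and 0.556). The genotype medians of Tfam were 7.90 in wild types and 7.89 in mutants. Without mutant replicates 5, 9 and 10 Tfam had -0.054 and Gabpb1 -0.028, and without the 5 arrays of lowest median -0.032 and -0.018. Esrra had -0.11 in arrays 1 to 12 and 0.0031 in arrays 13 to 24.

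Cell type markers were read beside these values. The 9 neuronal markers had mean levels between 10.6 and 13.6 and a median difference of -0.0073. No marker passed the test. All 11 measured oligodendrocyte markers lay below 0, against 51.0% of all genes and 64.9% of bright genes, with a median of -0.057. They ran from -0.14 (Mog) to -0.0084 (Mag), and none was lower at an unadjusted p under 0.05. Their mean ran from 8.50 to 8.91 in mutants and from 8.48 to 9.05 in wild types. The 4 measured blood markers, Ngp, S100a8, S100a9 and Alas2, had a median of -0.56, but they did not move alike. Their mean ran from 5.69 to 6.69 in mutants and from 6.08 to 8.94 in wild types. At an unadjusted p under 0.05 (limma) 3 were lower, against 5.82% of all genes. These were Ngp, S100a8 and S100a9, at -1.195, -0.67 and -0.46. Their SDs were 1.44, 1.11 and 0.74 in wild types and 0.67, 0.39 and 0.22 in mutants. Alas2 had -0.054 ± 0.15 (limma, unadjusted p = 0.721). Astrocyte, microglial, endothelial and oligodendrocyte precursor markers had medians of 0.0074, -0.012, -0.013 and -0.018. Nefl of the neuronal, Olig1 of the precursor and C1qc of the microglial markers had -0.064, -0.077 and -0.084. Each was lower at an unadjusted p under 0.05 (limma), against 5.82% of all genes. No neuronal, astrocyte, microglial, endothelial or precursor marker was higher at that level. The part of cell composition in the subunit values was not tested.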

How the data were processed

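The deposited table holds log2 expression values, which the authors made with RMA, per the submitters' processing notes. No RMA version and no probe build were stated in the labels or headers. Of 35556 probe sets, 21218 had a single symbol in the platform annotation, 1881 several and 12457 none. A gene was represented by its brightest such probe set over the 24 arrays, giving 18820 genes. The table has no detection call, and RMA compresses differences of dim probe sets. Many subunit genes have processed pseudogenes, which array probes may also detect.

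All genes were fitted with limma 3.58.1 in R 4.3.3 with genotype as the sole term, and p-values were adjusted over all genes (Benjamini-Hochberg, threshold 0.05). The step was tested on simulated data. Alternatives were other scalings, other model terms, subsets of arrays, a filter on dim genes and averaging a gene over its probe sets. For single genes a permutation test (two-sided, 100000 resamples) was added. Members and lists were chosen with earlier results of these data known. Any member could be named; per complex the 4 with the smallest p are given in full, and 3 per other list. Labels name replicates without saying that each is a separate animal, so p-values measure the spread between these samples. A planned split by protein length was not run, since protein sequences were not used here.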

Additional observations from a re-analysis of the deposited data

How the results depend on the processing

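No member was called under any of the 15 other settings. The members below 0, 38 as deposited, numbered 29 to 40, and their median ran from -0.040 to -0.012. The 29 came with median centring, where 40.8% of all genes lay below 0. The 40 came with arrays 1 to 12, where 56.6% did. At an unadjusted p under 0.05, 4 members were lower as deposited, against 5.82% of all genes. The count was 1 with quantile normalization, median centring, centring on bright genes and without the 5 arrays of lowest median. There 5.07%, 3.25%, 3.61% and 3.28% of all genes were lower, in that order. The count was 2 with arrays 1 to 12 and without mutant replicates 5, 9 and 10, against 5.55% and 4.36%. With arrays 13 to 24 it was 0, against 2.85%, and with a variance trend 7, against 6.43%. Members of complex II below 0 numbered 1 with quantile normalization, median centring, bright-gene centring, arrays 13 to 24 and without those 5 arrays; for complex IV the count was 5 with median centring. The causes were not tested, and the subsets also hold fewer mice.

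Some single values changed sign. Sdhb was 0.003 with quantile normalization, 0.0027 with median centring, 0.0019 with bright-gene centring, 0.0334 with arrays 13 to 24 and 0.0058 without the 5 arrays. Sdhc was 0.0115, 0.0136, 0.0129, 0.0313 and 0.0151 in the same order, and 0.0038 with array weights. Sdhd was -0.0043 with the array block (1 to 12 or 13 to 24) as a term, -0.0311 with arrays 1 to 12 and -0.0004 with array weights. With arrays 1 to 12, Cox6c was 0.0065 and Atp5o -0.0111; with arrays 13 to 24, Ckmt1 was 0.002 and Esrra 0.0031.

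With the replicate number as a block, 3 members were lower at an unadjusted p under 0.05, 38 lay below 0 and none was called. Over all genes 6.13% were lower at that level and 51.0% lay below 0. Mice of the same number had residual correlations of -0.076 to 0.311 (median 0.096; -0.014 between other numbers), and the labels tie no number to a litter or day. Ndufb9 and Ndufa9 left that unadjusted level with the block, Uqcrfs1 entered it, and Etfa did so among the named genes of other lists. The block changed no call at the adjusted threshold among the members and the other genes named. The arrays have no depth; signal over background is not given, and the number of arrays limits the precision.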
